A study of Homo sapiens with 15 samples.

Results

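GNF-7 given for 6 h to senescent HT-1080 cells was examined across all genes. The comparison took the 3 libraries of senescent cells that received 1 uM GNF-7 for 6 h and the 3 libraries of senescent cells that received the vehicle DMSO and were sampled at 6 h, which are 6 of the 15 libraries of the series. The libraries were picked out by their names, and the comparison was taken up with earlier results of these data known. HT-1080 is an established line from a human fibrosarcoma. Both groups had been made senescent in the same way, by 6 days of expressing a TRF2 mutant (gene TERF2) that acts in a dominant negative way on the capping of telomeres. The labels call the 3 libraries of a group biological replicates, and do not say whether the cells that carried the mutant came from 1 clone. The same pair of groups at 24 h (3 libraries each, none shared with 6 h) served as a later measurement of the same treatment. Cycling cells received the vehicle only, so the response of cycling cells to GNF-7 was not analysed here.

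GNF-7 is a kinase inhibitor of ABL and other tyrosine kinases, and the title of the study names the kinase GCN2 (gene EIF2AK4) as the protein it acts on. GCN2 is one of the kinases that phosphorylate the translation factor eIF2 when amino acids run short. Phosphorylated eIF2 lowers protein synthesis as a whole but favours translation of a few mRNAs, among them that of the transcription factor ATF4. ATF4 with its partners of the C/EBP family then raises genes for the making, uptake and use of amino acids, a programme called the integrated stress response (ISR), which includes its own brakes and, when it lasts, genes of cell death.

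Total counts were 27590475 to 30264174 in the vehicle libraries and 27798923 to 29851086 in the GNF-7 libraries. Levels are given as CPM (counts scaled for library size and composition), with the SD over 3 libraries, and do not account for gene length. Of the mesenchymal markers looked at in these 6 libraries, VIM, FN1 and SPARC had at least 51248 counts each, whereas COL1A2 had 1 to 9 and THY1 had 0. Of 14 markers of other cell types 11 had at most 8 counts in any library, with MLANA and SOX10 at 0, whereas CD68 had 77 to 127, VWF 5 to 23 and PECAM1 7 to 22. TERF2, whose counts may include those of the mutant, was at 58.2 ± 3.65 CPM in cycling cells, at 278, 293 and 291 CPM in vehicle and at 212, 227 and 227 CPM after GNF-7. All 6 senescent libraries were above cycling cells, and each GNF-7 library was below each vehicle library, which was a change of -0.37 on the log2 scale (SE 0.040, adjusted p 7.34e-12 by edgeR). Genes with 1 count or more numbered 25027 to 25292 in vehicle and 26034 to 26273 after GNF-7, and mitochondrially encoded genes took 11.2% to 12.4% and 13.2% to 15.3% of counts. With these genes left out of the scaling 7253 genes were called, against 7286 with them in.

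The question of the comparison was which genes senescent cells changed in the first hours of GNF-7. Of 18563 genes tested, 39.3% were called at an edgeR adjusted p under 0.05, 17.9% higher and 21.4% lower, and these shares are the background for each count of list members. In 47.7% of genes the CPM of the 2 groups did not overlap. Over all genes the median change was 0.01 on the log2 scale. The p-values rest on the spread between libraries within groups, estimated over all 15 libraries. In such bulk RNA fewer cells of a kind and less RNA per cell cannot be told apart. Between 1.5 and 2-fold there were 700 rises and 353 falls. The large changes were mostly rises: at least 2-fold rises were seen for 772 genes (4.16%) and falls of that size for 105 (0.566%), and 180 rises and 15 falls were over 4-fold. Of the 772 rises 517 had a vehicle mean under 1 CPM, and 60 were at 3 or fewer counts in every vehicle library, where the fitted fold depends on the prior count. Over the 11175 genes with a mean of at least 5 CPM, 169 (1.51%) rose and 40 (0.358%) fell by at least 2-fold.

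**Figure D1:**
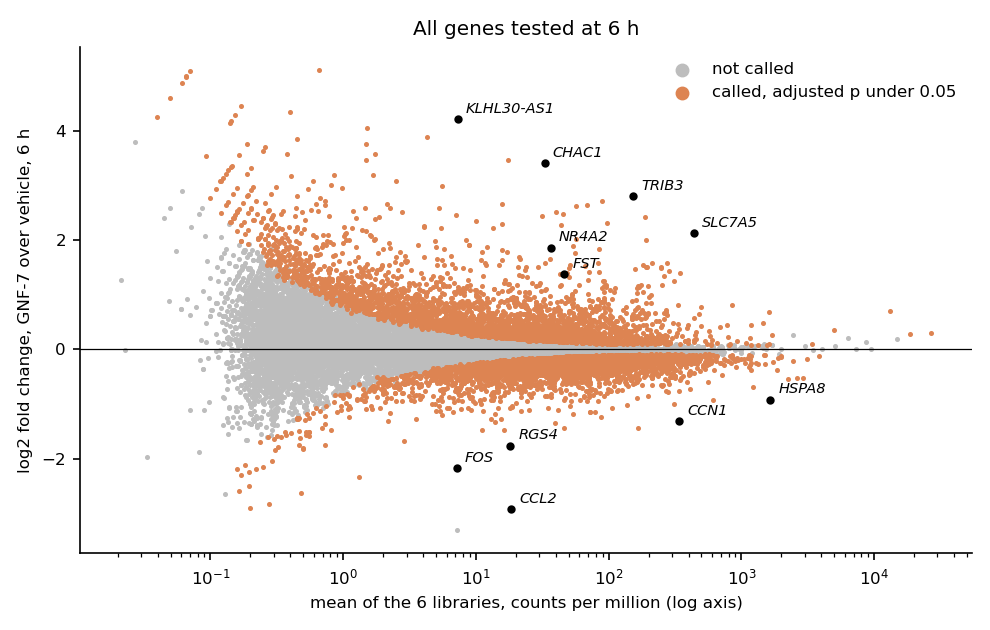
Log2 fold change of GNF-7 over vehicle at 6 h (vertical axis) against the mean of the 6 libraries in CPM (horizontal log axis) for the 18563 genes tested, with genes called at an adjusted p under 0.05 in orange. Rises of at least 2-fold (772) outnumber falls (105), and KLHL30-AS1 (4.22) and CCL2 (-2.92) are the largest rise and fall under the naming rule.

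The genes set out as marks of the response moved far apart from their vehicle levels. CHAC1 (ENSG00000128965, chr15:40952962-40956519, GRCh38, plus strand), an enzyme that breaks down glutathione, was at 5.73, 5.94 and 5.27 CPM in vehicle and at 59.1, 58.4 and 62.7 CPM after GNF-7. All GNF-7 libraries were above all vehicle libraries, and the change was 3.41 on the log2 scale (SE 0.078, adjusted p 9.87e-44 by edgeR). ADM2 (ENSG00000128165, chr22:50481556-50486440), a secreted peptide of the calcitonin family, was at 3.18, 3.22 and 2.15 CPM in vehicle and at 31.4, 30.9 and 33.1 CPM after GNF-7. The groups were separate again, by 3.47 on the log2 scale (SE 0.117, adjusted p 1.10e-31 by edgeR). TRIB3 (ENSG00000101255, chr20:362835-397559), a pseudokinase that binds ATF4 and restrains it, was at 38.2, 39.0 and 36.4 CPM in vehicle and at 273, 250 and 272 CPM after GNF-7. It had the smallest p of the ISR factors (2.81 on the log2 scale, SE 0.045, adjusted p 1.27e-51 by edgeR). CCL2 (ENSG00000108691, chr17:34255218-34257203), a chemokine that draws monocytes, went the other way, from 34.7, 28.9 and 34.5 CPM to 3.92, 4.18 and 4.84 CPM. It was the largest fall among genes with a mean of at least 5 CPM whose groups did not overlap (-2.92 on the log2 scale, SE 0.096, adjusted p 3.19e-35 by edgeR).

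**Figure D2:**
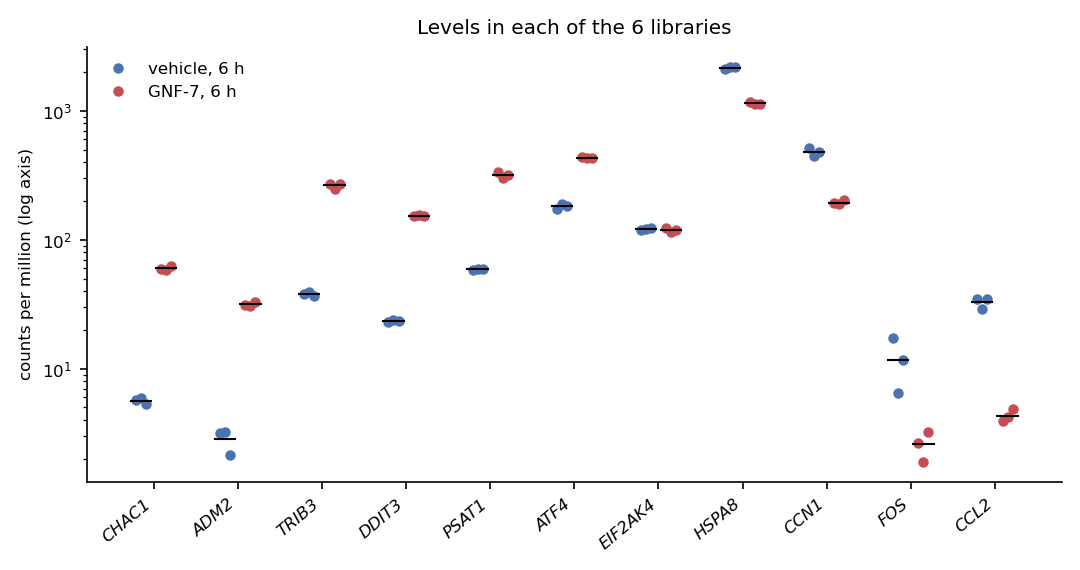
Levels of 11 genes in CPM (vertical log axis) in each of the 3 vehicle (blue) and 3 GNF-7 (red) libraries at 6 h, with black bars at the group means. The groups overlap for EIF2AK4 (means 122 and 120 CPM) and are separate for the other genes, with FOS the most variable in vehicle (6.44 to 17.2 CPM).

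The ISR factors moved in both directions. Of 29 factors 10 were called higher and 9 lower, and the median (-0.01) lay beside that of all genes and changed sign over the alternatives. EIF2AK4 itself, the gene of GCN2, was at 120, 122 and 124 CPM in vehicle and 124, 115 and 120 CPM after GNF-7. The groups overlapped, and the change was -0.03 on the log2 scale (SE 0.043, adjusted p 0.657 by edgeR). GCN1, the ribosome-bound activator of GCN2, fell from 300 ± 8.06 to 243 ± 4.82 CPM (-0.31, SE 0.036, edgeR adjusted p 1.78e-10), and EIF2AK3, the kinase PERK of the endoplasmic reticulum, fell by 0.32 on the log2 scale. IMPACT, which competes for GCN1, rose by 0.21.

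Several transcription factors of the ISR rose. ATF4 (ENSG00000128272, chr22:39519695-39522685) was at 174, 189 and 184 CPM in vehicle and 440, 429 and 431 CPM after GNF-7, so its mRNA rose as well (1.249 on the log2 scale, SE 0.036, adjusted p 1.65e-38 by edgeR). DDIT3, which encodes the death-linked factor CHOP, went from 23.2, 23.8 and 23.2 CPM to 152, 157 and 154 CPM (2.72, SE 0.051, edgeR adjusted p 1.85e-48). Genes on either strand overlap it, among them MARS1, which also rose. CEBPG (2.03), a partner of ATF4, rose from 22.5 ± 1.36 to 91.4 ± 2.51 CPM, and CEBPB (1.51), ATF3 (1.401), JDP2 (2.22) and NUPR1 (2.66) rose with it. NUPR1, a small chromatin protein of stressed cells, went from 3.84, 4.39 and 4.75 CPM to 26.4, 26.2 and 29.2 CPM, and its groups did not overlap.

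Family members of these genes did not move as 1 block. TRIB1 and TRIB2, relatives of TRIB3, fell by 0.68 and 0.77 on the log2 scale, from 25.4 ± 1.92 to 15.8 ± 0.594 CPM and from 21.0 ± 0.638 to 12.3 ± 1.66 CPM. ATF5, which is known for translational control like that of ATF4, had a lower mRNA level, at 49.6, 52.6 and 56.2 CPM in vehicle and 38.3, 37.7 and 37.1 CPM after GNF-7 (-0.49, SE 0.055, edgeR adjusted p 4.02e-11). PPP1R15A, the subunit GADD34 that recruits a phosphatase to eIF2 and ends the response, rose by 0.78, whereas its constitutive relative PPP1R15B did not differ beyond the replicate spread.

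Genes for amino acid synthesis made up the most changed list by its median. Of 25 members 16 rose, 11 of them by at least 2-fold, and 4 fell (median log2 fold change 0.92). The list took 0.130% to 0.131% of all counts in vehicle and 0.235% to 0.251% after GNF-7. The whole serine branch rose: PHGDH, PSAT1 and PSPH, which catalyse its 3 steps in order, by 1.85, 2.42 and 1.49 on the log2 scale. PSAT1 was at 58.6, 59.3 and 59.7 CPM in vehicle and 334, 300 and 318 CPM after GNF-7, with the groups well apart (SE 0.042, edgeR adjusted p 2.95e-50). The mitochondrial enzymes that pass 1-carbon units on from serine rose too, with SHMT2 at 1.04, MTHFD2 at 2.00, MTHFD1L at 0.80 and ALDH1L2 at 2.63.

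ASNS, which makes asparagine, had the largest rise of the list (3.00, SE 0.167, edgeR adjusted p 1.62e-23) at a low level, from 0.927, 1.26 and 1.53 CPM to 8.82, 10.2 and 10.8 CPM. Other genes overlap it on both strands, so its counts are uncertain. CBS and CTH, which carry sulfur from homocysteine to cysteine, rose by 2.24 and 1.71. GPT2, the mitochondrial alanine aminotransferase, rose by 1.89, and PCK2, mitochondrial phosphoenolpyruvate carboxykinase, by 2.65. The members that fell included ALDH18A1, which commits glutamate to proline, from 88.6 ± 2.72 to 65.8 ± 1.53 CPM (-0.43).

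Of 23 amino acid transporters tested 11 rose, 7 of them by at least 2-fold, and 5 fell (median 0.39). SLC7A5, the light chain of the leucine carrier LAT1, went from 169, 159 and 159 CPM to 735, 682 and 728 CPM (2.14, SE 0.038, edgeR adjusted p 8.83e-50), and SLC3A2, its heavy chain, from 129 ± 2.82 to 367 ± 8.94 CPM (1.51). SLC7A11, the cystine carrier that shares this heavy chain, rose by 2.32. The carriers of glycine (SLC6A9, 2.51), of small neutral amino acids (SLC1A4, 2.45; SLC1A5, 1.35; SLC38A1, 0.91) and of arginine and lysine (SLC7A1, 1.13) rose as well. SLC25A22, which takes glutamate into mitochondria, fell by 0.61 on the log2 scale.

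The enzymes that load amino acids on tRNA separated by compartment. Of 21 cytosolic tRNA synthetase genes 12 rose and 4 fell (median 0.47), whereas of 17 mitochondrial ones 1 rose and 7 fell (median -0.12). WARS1 and AARS1, for tryptophan and alanine, rose most in the first group, from 105 ± 2.48 to 316 ± 4.86 CPM (1.59, SE 0.037, edgeR adjusted p 2.36e-43) and from 137 ± 0.428 to 411 ± 9.25 CPM (1.58, SE 0.036, edgeR adjusted p 7.15e-44). GARS1 (1.41), CARS1 (1.16), YARS1 (0.96), SARS1 (0.85), IARS1 (0.81), TARS1 (0.72), MARS1 (0.66), EPRS1 (0.66), NARS1 (0.47) and LARS1 (0.15) followed. The 4 cytosolic genes that fell, RARS1, FARSA, HARS1 and QARS1, did so by at most 0.24 on the log2 scale, and the calls of HARS1 and QARS1 were lost under some alternatives. In the mitochondrial group LARS2 fell most among those called, from 31.5 ± 0.892 to 21.6 ± 1.01 CPM (-0.54), and CARS2 alone rose (0.19). GARS1, which encodes both forms of its enzyme, was counted as cytosolic.

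**Figure D3:**
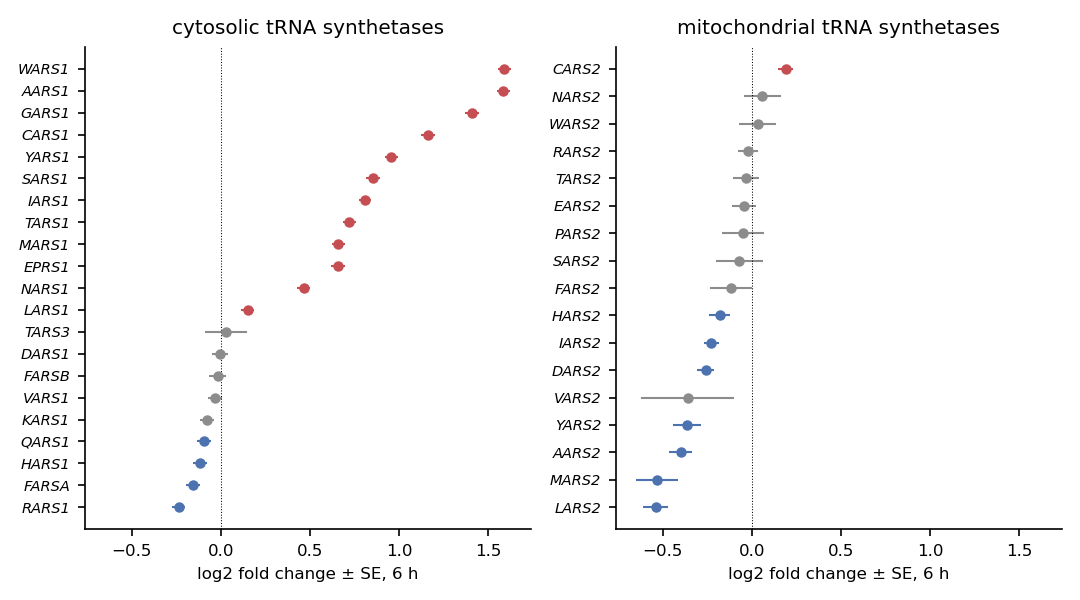
Log2 fold change at 6 h with its standard error for each tRNA synthetase gene tested, 21 cytosolic (left) and 17 mitochondrial (right), in red where called higher, blue where called lower and grey where not called. The cytosolic genes reach 1.59 (WARS1) and the mitochondrial ones lie between -0.54 (LARS2) and 0.19 (CARS2).

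The promoters of these groups were read because ATF4 with C/EBP partners is known to bind a joint element whose core can be written TGATGNAA. The windows run from 250 bases before to 50 after each start in RefSeq (GRCh38.p14), and both strands were searched. Of 12111 tested genes with a window 3.04% held the core (95% Wilson interval 2.75% to 3.36%). It was held by 47 of the 411 genes with a window that rose by at least 2-fold (11.4%, 8.71% to 14.9%) and by 3 of the 57 that fell as far (5.26%, 1.81% to 14.4%). Among genes with a mean of at least 5 CPM these shares were 25 of 128 (19.5%, 13.6% to 27.2%) for the rises and 2.77% for all. At that mean 3 of the 35 falls with a window held it (8.57%, 2.96% to 22.4%). TGACGTCA, the cAMP response element, was in 2.92% of the rises (1.68% to 5.03%) and 3.68% of all (3.36% to 4.03%). The E2F site TTTCCCGC was in 1.95% and 3.2%. TGANTCA, the AP-1 site, was in 12.2% (9.35% to 15.7%) and 7.84% (7.38% to 8.34%), so its intervals were apart as well. The longer cores TGATGNAAT and TGATGNAAC were in 2.92% and 3.65% of the rises and in 0.826% and 0.735% of all. The intervals cover the number of genes only, and a match is a description of letters and neither a binding site nor a cause.

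The 7 cytosolic synthetase windows with the core all belonged to genes that rose (7 of 10 risers and 0 of 6 others with a window). Among transporters the core was in 5 of 9 risers and 1 of 10 others (SLC1A3), among amino acid synthesis genes in 4 of 10 and 0 of 5, among ISR factors in 3 of 9 and 1 of 15 (PPP1R15B), and among mitochondrial synthetases in 0 of 1 and 1 of 13 (YARS2). Further lists went both ways. The core was in 0 of 13 risers among p53 targets, 0 of 10 among hosts of small nucleolar RNAs and 0 of 6 among lysosome and autophagy genes. It was in 2 of 6 risers among BCL2 family and death receptor genes, 2 of 3 among SRF and YAP targets and 2 of 4 among interferon response genes. Windows on 1 chromosome were left out of these list counts but kept in the shares of all genes. The window of GBP1, a gene that fell, also held the core. The synthetase stretches are shown first, then those of other genes chosen because they rose, as 30 bases read 5′ to 3′ on the gene's strand with the core, or its reverse complement, in capitals. 
AARS1, chr16:70289675-70289704: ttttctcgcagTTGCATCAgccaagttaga
CARS1, chr11:3057407-3057436: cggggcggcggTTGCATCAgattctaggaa
GARS1, chr7:30594834-30594863: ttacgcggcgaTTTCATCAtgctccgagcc
IARS1, chr9:92293692-92293721: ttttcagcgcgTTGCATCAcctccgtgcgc
MARS1, chr12:57488053-57488082: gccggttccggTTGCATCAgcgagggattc
NARS1, chr18:57621804-57621833: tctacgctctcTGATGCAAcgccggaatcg
TARS1, chr5:33440956-33440985: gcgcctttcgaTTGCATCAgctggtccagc
ASNS, chr7:97872458-97872487: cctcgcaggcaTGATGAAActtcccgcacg
BCAT1, chr12:24949131-24949160: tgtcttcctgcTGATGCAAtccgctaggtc
SLC1A4, chr2:64989381-64989410: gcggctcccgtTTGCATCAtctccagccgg
SLC1A5, chr19:46784893-46784922: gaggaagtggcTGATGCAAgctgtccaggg
CEBPG, chr19:33374060-33374089: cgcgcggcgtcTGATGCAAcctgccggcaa
JDP2, chr14:75427995-75428024: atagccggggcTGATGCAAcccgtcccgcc
CHAC1, chr15:40953251-40953280: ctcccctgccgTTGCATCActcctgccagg
HERPUD1, chr16:56931955-56931984: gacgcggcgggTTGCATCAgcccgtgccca
The core began 68 bases before the RefSeq start in ASNS, 42 in CEBPG, 16 in JDP2 and 209 in CHAC1. The RefSeq start of CHAC1 lies inside the gene span given above. The windows of TRIB3 and ADM2 hold no such core, which says only that these letters are not within them.

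Of 14 genes tested that restrain the growth kinase mTORC1, 7 rose and 3 fell (median 0.28), and 2 of the rises were at least 2-fold. DDIT4, the protein REDD1, went from 13.97, 14.1 and 13.2 CPM to 73.2, 74.5 and 81.9 CPM (2.48, SE 0.064, edgeR adjusted p 6.41e-41), and SESN2, a leucine sensor, from 82.6, 87.5 and 83.2 CPM to 236, 235 and 231 CPM (1.47, SE 0.041, edgeR adjusted p 5.55e-39). Both were above vehicle in every library. EIF4EBP1, the translation repressor 4E-BP1, rose by 0.87. Their relatives SESN3 and EIF4EBP2 fell by 0.62 and 0.45 on the log2 scale.

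Of 13 secreted stress factors tested 6 rose and 3 fell (median 0.08). Besides ADM2, INHBE, an activin subunit, rose from 0.261 ± 0.106 to 3.22 ± 0.211 CPM (3.58, SE 0.279, edgeR adjusted p 4.57e-17). STC2, a secreted glycoprotein, was already abundant and rose from 615 ± 46.5 to 1083 ± 48.3 CPM (0.82), GDF15 from 1001 ± 28.7 to 1357 ± 35.2 CPM (0.44) and VEGFA from 592 ± 10.2 to 788 ± 32.8 CPM (0.41). HBEGF, a ligand of the EGF receptor, went from 188, 177 and 184 CPM to 91.9, 90.3 and 90.5 CPM and fell by 1.01 on the log2 scale. In its own list, the genes of glutathione and of the oxidant sensor NRF2, CHAC1 was the only rise of at least 2-fold. Of 22 members 5 rose and 6 fell (median 0.01), and these shares (22.7% and 27.3%) lay near those of all genes (17.9% and 21.4%). Over the alternatives the number that rose was 5 to 8. HMOX1, heme oxygenase, rose by 0.75 and NFE2L2, which encodes NRF2, by 0.54. At 24 h 14 of the 22 were called higher and 2 lower, against 29.3% and 29.7% of all genes.

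Among genes of the BCL2 family and death receptors 7 of 24 rose and 3 fell (median -0.01, with a sign that changed over the alternatives). These shares were 29.2% and 12.5%, against 17.9% and 21.4% of all genes, and 14 members were not called. Among the rises were proteins that start apoptosis by binding the survival proteins. BCL2L11, the protein BIM, went from 19.1, 19.3 and 16.3 CPM to 42.4, 40.4 and 41.0 CPM (1.18, SE 0.075, edgeR adjusted p 5.88e-21). PMAIP1 (NOXA) rose by 0.73, BBC3 (PUMA) by 0.54 and HRK by 2.54, the last from 0.188 ± 0.0552 to only 1.11 ± 0.0826 CPM. MCL1, a survival protein, rose by 0.13. TNFRSF10B, the death receptor DR5 and a known target of CHOP, was at 1016 ± 30.9 and 972 ± 28.5 CPM and was not called (-0.06, SE 0.033, edgeR adjusted p 0.121). It was called lower with voom (-0.06) and without vehicle replicate 2 (-0.09).

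The unfolded protein response (UPR), which answers misfolding in the endoplasmic reticulum, split within itself. Of 26 genes 4 rose and 16 fell (median -0.17). XBP1, the factor spliced by IRE1, went from 60.1, 57.3 and 57.0 CPM to 133, 126 and 129 CPM (1.15, SE 0.046, edgeR adjusted p 4.65e-31). ERN1, which encodes IRE1, rose from 16.1 ± 0.498 to 37.2 ± 1.15 CPM (1.21), and HERPUD1, of the degradation complex, by 0.93. MANF, a secreted factor of the reticulum, went from 76.3, 70.2 and 75.7 CPM to 31.8, 32.3 and 34.2 CPM (-1.18, SE 0.052, edgeR adjusted p 2.25e-28), and CALR, calreticulin, from 2098 ± 96.0 to 1618 ± 36.8 CPM (-0.37). HSPA5, the chaperone BiP, had overlapping groups (1046 ± 42.1 and 1130 ± 55.7 CPM), and its call as higher (0.11, edgeR adjusted p 0.0477) was lost under several alternatives.

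Cytosolic heat shock genes fell as a group in count, with 11 of 14 lower and 2 higher (median -0.46). HSPA8, the constitutive HSP70, went from 2118, 2200 and 2178 CPM to 1170, 1128 and 1140 CPM (-0.92, SE 0.033, edgeR adjusted p 7.16e-33). DNAJB1 and DNAJA1, its co-chaperones, fell by 0.77 and 0.64 on the log2 scale. The inducible HSPA1A and HSPA1B fell by 1.48 and 1.33, the first from 16.5 ± 2.22 to 5.92 ± 0.151 CPM and the second from 20.02 ± 0.516 to 7.29, 9.36 and 7.35 CPM. These copies are nearly identical, so the split of reads between them is uncertain. HSPB1 was higher (0.96) at 1.66 ± 0.580 CPM in vehicle, a call that DESeq2 did not make (adjusted p 0.0735).

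Immediate early genes, which respond within minutes to growth signals, moved in opposite directions. Of 22 tested 7 rose and 11 fell (median -0.12). FOS was at 17.2, 6.44 and 11.6 CPM in vehicle and 2.66, 1.89 and 3.21 CPM after GNF-7. The groups did not overlap, but vehicle varied widely, and the fall (-2.17) had an SE of 0.572 and an edgeR adjusted p of 0.0111. JUN went from 167, 151 and 157 CPM to 93.3, 93.6 and 98.2 CPM (-0.74, SE 0.043, edgeR adjusted p 1.45e-22). FOSB (-1.07) and EGR1 (-0.94) were lower with edgeR adjusted p of 0.0291 and 0.0388, and lost the call without a filter (0.0567 and 0.0709) and when any of several libraries was left out.

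The 3 nuclear receptors of the NR4A family went up together in the same libraries. NR4A2 was at 15.1, 16.1 and 16.02 CPM in vehicle and 61.2, 56.4 and 54.6 CPM after GNF-7 (1.87, SE 0.078, edgeR adjusted p 9.51e-30). NR4A1 rose from 5.31 ± 0.436 to 16.5 ± 2.57 CPM (1.64) and NR4A3 from 5.00 ± 1.06 to 17.3 ± 0.415 CPM (1.79). Of 20 feedback genes of the ERK kinases 5 were called higher and 6 lower (median 0.02). These shares (25% and 30%) lay near those of all genes (17.9% and 21.4%). DUSP1, a phosphatase of MAP kinases, rose from 40.9 ± 3.19 to 99.3 ± 0.496 CPM (1.28). RGS4, which switches off G proteins, went from 27.9, 26.4 and 29.8 CPM to 9.01, 7.92 and 7.80 CPM (-1.76, SE 0.078, edgeR adjusted p 1.53e-28). HMGA2 and CCND1, a chromatin protein and cyclin D1, fell by 0.78 and 0.47 on the log2 scale.

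Targets of SRF and YAP, factors that read actin tension and cell spreading, were mostly lower, with 10 of 18 called lower and 4 higher (median -0.29). CCN1, a secreted matrix protein, went from 520, 446 and 478 CPM to 192, 189 and 202 CPM (-1.31, SE 0.065, edgeR adjusted p 8.88e-11), and CCN2 from 256, 230 and 243 CPM to 92.2, 86.9 and 90.7 CPM (-1.43, SE 0.059, edgeR adjusted p 1.03e-15). ANKRD1 (-0.93), AMOTL2 (-0.88), VCL (-0.77) and ACTB (-0.52), the last from 3430 ± 105 to 2384 ± 89.8 CPM, were lower in every GNF-7 library. Among matrix and protease genes 12 of 23 fell and 1 rose (median -0.12), with THBS1 (-0.92) and SPARC (-0.52) among the falls. SPARC is also one of the 3 of 8 mesenchymal markers tested that were called lower.

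**Figure D4:**
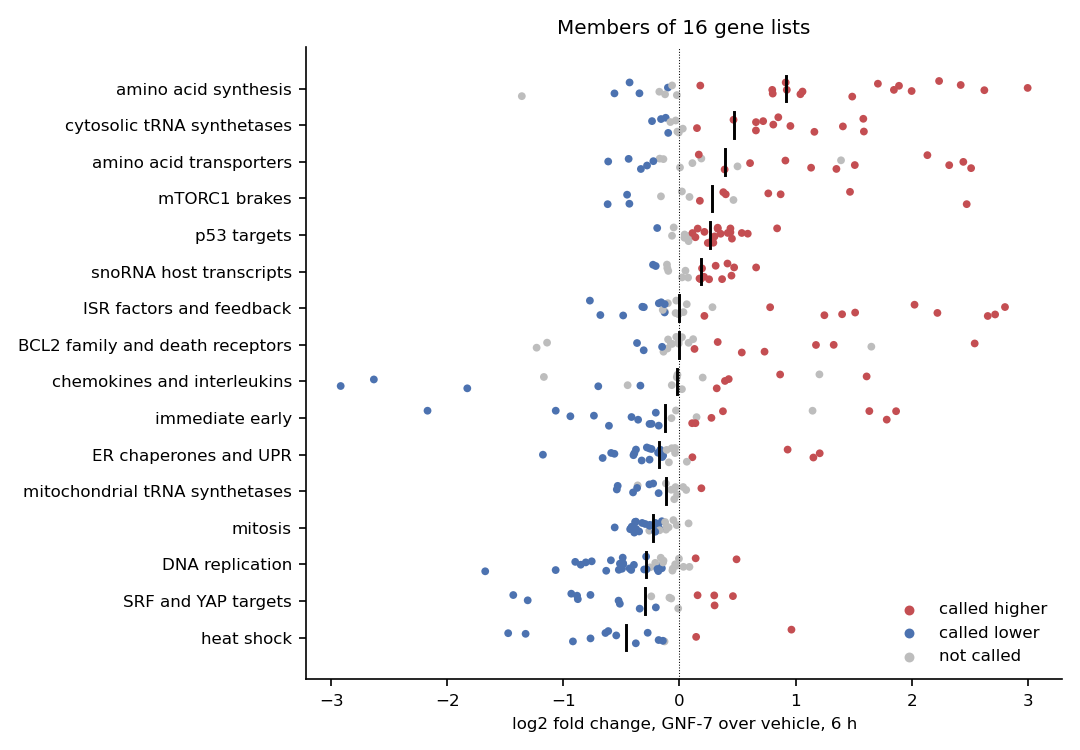
Log2 fold change at 6 h of each tested member of 16 gene lists, in red where called higher, blue where called lower and grey where not called, with a black bar at the median of the list. Medians run from 0.92 (amino acid synthesis) to -0.46 (heat shock), and lists with a median near 0, such as ISR factors, hold members far out on either side.

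Chemokines and interleukins, much studied in senescent cells as part of their secretions, did not move together. Of 18 tested 5 rose and 5 fell (median -0.02, of changing sign over the alternatives). These shares were 27.8% each, against 17.9% and 21.4% of all genes. Beside CCL2, its neighbour and relative CCL7 was lower (-1.83) at 0.530, 1.26 and 0.555 CPM in vehicle and 0.194, 0.206 and 0.255 CPM after GNF-7, and lost its call without vehicle replicate 2 (-1.30, edgeR adjusted p 0.0687). CSF2 (-2.63) was also low, at 0.834 ± 0.321 CPM in vehicle. CXCL8, which draws neutrophils, fell from 9.33 ± 0.869 to 5.75 ± 0.527 CPM (-0.70). In contrast IL6 rose from 3.85 ± 0.320 to 7.03 ± 0.866 CPM without overlap (0.87, SE 0.161, edgeR adjusted p 1.01e-05), CXCL3 by 1.61, and IL1B from 115 ± 2.78 to 151 ± 2.32 CPM (0.39). Feedback genes of NF-kB, which drives many of these, had 6 of 13 higher and 2 lower. NFKBIA, its inhibitor, fell from 30.5 ± 2.10 to 19.2 ± 1.92 CPM (-0.67), NFKBIZ rose by 0.86 and RELB by 0.46. MAP3K14, the kinase NIK of the noncanonical branch, went from 67.8, 68.2 and 65.5 CPM to 22.1, 27.0 and 25.2 CPM (-1.44, SE 0.059, edgeR adjusted p 2.61e-30).

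Genes of the cell cycle fell, mostly by less than 2-fold. Of 38 DNA replication genes 24 fell and 2 rose (median -0.29), and of 30 mitosis genes 21 fell (median -0.23). MKI67 went from 146, 153 and 148 CPM to 113, 116 and 114 CPM (-0.38, SE 0.045, edgeR adjusted p 8.85e-10). UHRF1, which copies DNA methylation, fell by 1.07 on the log2 scale, FAM111B by 1.67 from 4.35 ± 0.707 CPM, CLSPN by 0.90, UBE2C by 0.56 and CDK1 by 0.42. Of 26 p53 targets 18 rose and 1 fell (median 0.26). GADD45A rose by 0.84, PHLDA3 by 0.59 and MDM2, the ligase that degrades p53, from 652 ± 18.8 to 892 ± 33.9 CPM (0.45). CDKN1A, the cell cycle inhibitor p21, was at 501 ± 8.96 and 518 ± 17.4 CPM with overlapping groups (0.05, SE 0.034, edgeR adjusted p 0.283). A filter keeping means of 5 CPM or more gave a call as higher (0.10).

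Sterol and fatty acid synthesis, tyrosine kinase and lysosome genes held smaller and mixed changes. In the sterol list 22.6% were called higher and 25.8% lower, and in the lysosome list 25.9% and 22.2%. These shares lay near those of all genes (17.9% and 21.4%). Of 31 sterol and fatty acid genes 7 rose and 8 fell, led by INSIG1, the sterol sensor, which rose from 25.9 ± 2.38 to 42.6 ± 1.86 CPM (0.72), and ELOVL6, which fell by 0.71 on the log2 scale. At 24 h 29 of the 31 were called lower (median -0.92), and INSIG1 was at -1.36. Of 25 genes for tyrosine kinases and other reported targets of GNF-7, 5 rose and 11 fell. The collagen receptor DDR2 went from 110, 106 and 109 CPM to 254, 232 and 245 CPM (1.17, SE 0.039, edgeR adjusted p 4.83e-35), FYN rose by 0.95 and ERBB2 fell by 0.52. Of 27 lysosome and autophagy genes 7 rose and 6 fell. The cholesterol exporter NPC1 rose from 368, 362 and 370 CPM to 643, 614 and 617 CPM (0.77), and the autophagosome proteins MAP1LC3B and GABARAPL1 by 0.67 and 0.63.

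Of 23 interferon response genes 4 rose and 7 fell (median -0.06), with IRF1, a transcription factor, the highest at 0.70. These shares were 17.4% and 30.4%, against 17.9% and 21.4% of all genes. Of 9 senescence markers 2 rose and 5 fell. The remaining large changes under the naming rule were outside the lists. ARHGAP9 rose by 2.58 from 1.49 ± 0.416 CPM and overlaps MARS1 on the other strand, so its counts are uncertain. GBP1, an interferon-induced GTPase, fell from 23.9 ± 0.287 to 8.58 ± 0.339 CPM (-1.48), DCBLD1 from 56.2 ± 1.94 to 22.03 ± 2.45 CPM (-1.35), MACIR from 21.7 ± 1.70 to 8.96 ± 1.251 CPM (-1.27) and PIK3R3, a regulatory subunit of PI3-kinase, from 18.4 ± 1.35 to 7.65 ± 1.02 CPM (-1.27).

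Rises of at least 2-fold were counted by gene type, and differences between types were not tested. They made up 9.56% of lincRNA genes, 7.72% of antisense genes, 2.91% of protein coding genes and 0 of 41 snoRNA genes, and the share of protein coding genes was below those of lincRNA and antisense genes also among genes with a mean of at least 1 CPM (7.38% of lincRNA, 8.05% of antisense and 1.88% of protein coding genes). KLHL30-AS1 (ENSG00000279484, chr2:238152889-238155994) had the largest rise under the naming rule, from 0.828, 0.758 and 0.624 CPM to 13.2, 14.7 and 13.6 CPM (4.22, SE 0.166, edgeR adjusted p 3.49e-31). It lies antisense to KLHL30, and whether counting used strand is not given in the sources used here, so the value is uncertain. LINC02806, chosen after its values were seen, rose from 0.548 ± 0.253 to 8.05 ± 0.771 CPM (3.88). Transcripts that host small nucleolar RNAs, many of which are degraded when they are translated, had 11 of 19 higher and 2 lower (median 0.18), with SNHG8 at 0.66, SNHG7 at 0.47, ZFAS1 at 0.45 and GAS5 at 0.41. Of 40 cytosolic ribosomal protein genes 8 were called higher (20%, against 17.9% of all genes), a count that ran from 1 to 25 over the alternatives. Of 15 mitochondrially encoded genes 5 were called higher, with 2 to 9 over the alternatives. The mitochondrial ribosomal RNAs MT-RNR2 and MT-RNR1 were higher by 0.71 and 0.49, and the part of the mitochondrial share in the other changes was not tested beyond the scaling given above.

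The later libraries showed which of the early changes were also called at 24 h. At 24 h 58.9% of genes were called, 29.3% higher and 29.7% lower, with 10.3% higher and 3.92% lower by at least 2-fold. Of the 772 genes that rose by at least 2-fold at 6 h, 574 (74.4%) were called higher at 24 h, 2 were called lower and 196 were not called. Of the 105 that fell, 62 (59%) were called lower, 1 higher and 42 not. Among those with a mean of at least 5 CPM, 163 of 169 rises and 39 of 40 falls were called in the same direction. That mean is over both groups, so a gene that rose could reach it through its GNF-7 level alone, as KLHL30-AS1 (0.737 CPM in vehicle) and ASNS (1.24 CPM) did. The difference between the times was called for 30.8% of all genes, 12.8% higher and 18% lower at 24 h, and by at least 2-fold for 2.93% and 2.06%. It was called for 118 of these 209, of which 71 were further from 0 at 24 h. CCL2 fell on from -2.92 to -5.75 and RGS4 from -1.76 to -3.18, and NUPR1 went from 2.66 to 3.79 and CHAC1 from 3.41 to 4.05. DDIT4 (2.48 and 1.92), HSPA1A (-1.48 and -0.71) and HSPA1B (-1.33 and -0.41) were nearer to 0 at 24 h.

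A few early changes were not seen in the later libraries. Of the 209 genes 7 changed without overlap at 6 h, were not called in that direction at 24 h and had a called difference between the times, and of these PDE4D, FST, CHMP1B, SNAP25 and PDK2 are named after their values were seen. NR4A2 rose from 15.7 ± 0.578 to 57.4 ± 3.39 CPM at 6 h but was at 11.2 ± 1.36 CPM in vehicle and 10.8 ± 0.484 CPM after GNF-7 at 24 h (difference of log2 fold changes -1.92, edgeR adjusted p 1.23e-20). The levels at 24 h did not differ beyond the replicate spread. FST, which encodes follistatin, a binder of activins, went from 25.1, 26.8 and 25.1 CPM to 66.9, 66.0 and 68.0 CPM at 6 h (1.38) and was at 17.5 ± 1.62 and 18.2 ± 1.501 CPM at 24 h. PDE4D, a phosphodiesterase that breaks down cAMP, rose by 1.87 at 6 h, CHMP1B, of the membrane-cutting ESCRT complex, by 1.13 and the receptor EPHA4 by 1.08, and none of the 3 was called at 24 h. SNAP25, of the vesicle fusion machinery, reversed, from 1.08 at 6 h to -1.09 at 24 h, both called. PDK2, which restrains pyruvate dehydrogenase, reversed the other way, from -1.12 to 0.34.

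**Figure D5:**
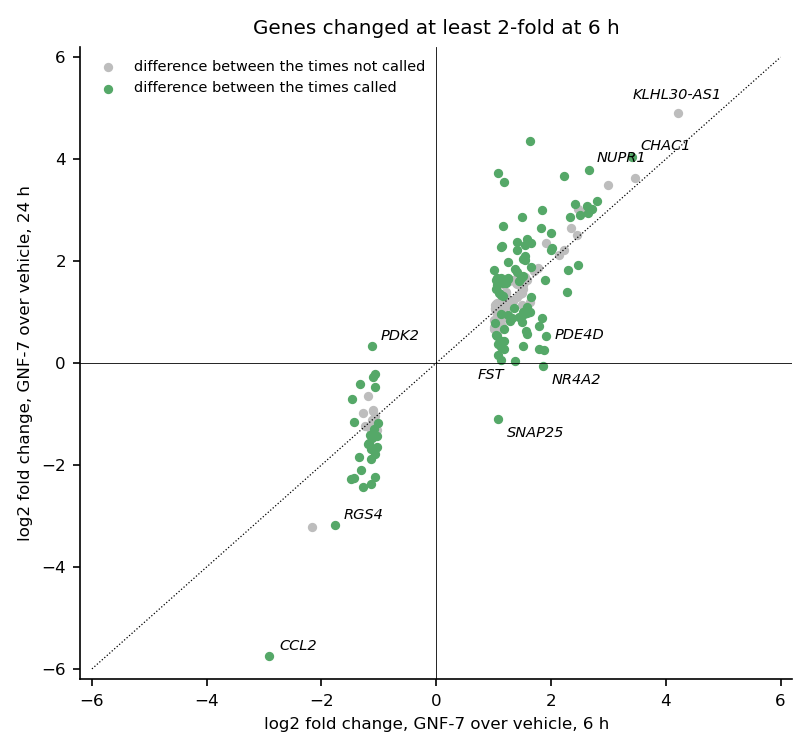
Log2 fold change of GNF-7 over vehicle at 24 h (vertical axis) against 6 h (horizontal axis) for the 209 genes with a mean of at least 5 CPM that changed by at least 2-fold at 6 h, in green where the difference between the times was called, with the dotted line of equal change. The 2 times share no library, most genes keep their side of 0, and SNAP25, NR4A2 and PDK2 lie across it.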

How the data were processed

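Stranded mRNA libraries were made from total RNA, per the labels' protocols. The authors deposited 1 table of raw read counts per gene. bcl2fastq 2.20.0.422, STAR 2.7.9a, featureCounts 1.5.1 and GRCh38 are named in the submitters' processing notes. The annotation release and strand setting used for counting are not given in the sources used here. Of 60673 rows 3 were left out, which are the lines of a broken gene entry. Groups came from the sample labels. The members of this comparison and the gene lists were chosen with earlier results of these data known.

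Counts were tested with edgeR 4.0.16 (R 4.3.3, robust quasi-likelihood test) over all 15 libraries with a term per group, after filterByExpr and TMM scaling. Adjusted p-values are Benjamini-Hochberg over 18563 genes, with calls made below 0.05. The biological coefficient of variation was 4.64%. On simulated counts edgeR recovered 84% of 200 genes changed 2-fold among 17789 tested for the 6 h comparison, with 10 false calls. Every simulated gene was given this same coefficient of variation and no other gene was changed, a simpler setting than these data. Alternatives used DESeq2 1.42.0, limma voom 3.58.1, other scalings and filters, and libraries left out. Named genes are the called genes at 5 CPM or more on average whose groups did not overlap, 12 with the greatest rise and 12 with the greatest fall, 8 genes set by name, the 3 members of each list with the smallest p, and other list members chosen by role.

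Positions and overlaps are from GENCODE v29 (GRCh38) and promoter sequences from RefSeq (GRCh38.p14). Of 166 genes whose values were recomputed, 42 overlap another gene on the same strand and 78 on the other strand, so their counts are less certain. Figures were drawn with matplotlib 3.10.9 in Python 3.11.15. Some results are not reported here.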

Additional observations from a re-analysis of the deposited data

Results flagged for a closer look

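For several named genes the GNF-7 response was not the same at the later time, each by edgeR's test of the difference itself at an adjusted p under 0.05. The background is 30.8% of all genes. Values are the log2 fold change at 24 h minus that at 6 h. Among genes that had risen at 6 h, the rise was larger at 24 h for LINC02806 (1.28), NUPR1 (1.13), CHAC1 (0.642), ALDH1L2 (0.463), ATF4 (0.424), SLC6A9 (0.386), TRIB3 (0.378), DDIT3 (0.3) and PCK2 (0.296). The rise was smaller or gone for DDIT4 (-0.555), EPHA4 (-0.915), CHMP1B (-1.07), FST (-1.33), PDE4D (-1.61) and NR4A2 (-1.92), and became a fall for SNAP25 (-2.17).

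Among genes that had fallen at 6 h, the fall was deeper at 24 h for TERF2 (-0.363), DCBLD1 (-0.498), GBP1 (-0.788), CCN1 (-0.792), CCN2 (-0.814), PIK3R3 (-1.17), RGS4 (-1.41) and CCL2 (-2.83). It was shallower for MAP3K14 (0.279), HSPA1A (0.77) and HSPA1B (0.916), and became a rise for PDK2 (1.46). The call of LINC02806 was lost without vehicle 6 h replicate 3, and that of MAP3K14 without GNF-7 6 h replicate 1.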

How the results depend on the processing

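The number of genes called at 6 h was 7286, and 7094 with DESeq2, 7291 with limma voom, 6866 without a filter and 6042 with a filter at a mean of 5 CPM. With that filter, which tests fewer genes, there were 184 rises and 36 falls of 2-fold or more, against 772 and 105. The filter takes the mean over all 15 libraries and kept 11234 genes. The 11175 genes given earlier had that mean over the 6 libraries of the comparison. Leaving out 1 library at a time gave 6339 to 6804 genes called, 2820 to 3083 higher and 3408 to 3723 lower, with 659 to 753 rises and 94 to 114 falls of at least 2-fold. At 24 h the same gave 10109 to 10504 genes called, 4911 to 5128 higher and 5192 to 5376 lower, and for the difference between the times 5172 to 5750, 2064 to 2343 and 3077 to 3407.

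Vehicle and GNF-7 samples of 6 h with the same replicate number correlated at 0.101, 0.181 and -0.0748 in their deviations. Those with unlike numbers correlated at -0.173 to 0.0912. In every senescent group the mitochondrial share was lowest in replicate 1 and highest in replicate 2. Whether the numbers pair the libraries is therefore uncertain, and the main test used no replicate block. With a replicate block 7481 genes were called at 6 h, 11031 at 24 h and 5921 for the difference. Of 2480 recomputed values for 166 genes at 6 h, 2442 kept direction and call, and 156 genes did so throughout. Direction turned only for values that were not called: EIF2AK4 at 6 h (0.02524 with the filter at 5 CPM, and -0.05811 to 0.01409 with 1 library left out, positive without GNF-7 replicate 2), NR4A2 at 24 h (0.05107 with that filter, and -0.1526 to 0.00937, positive without vehicle replicate 1) and FST at 24 h (-0.01193 to 0.12, negative without vehicle replicate 3 and, at -0.008645, without GNF-7 replicate 1). The cause was not tested.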
